A study of Caenorhabditis elegans with 16 samples.

Results

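The V-ATPase, the proton pump that acidifies lysosomes and other compartments, and the aspartic and cysteine proteases that work in such compartments or in the gut were followed through food withdrawal in *C. elegans*. Genes were chosen by the symbol that the array annotation pairs with a probe set, that is every *vha*, *asp* or *cpr* gene with a number, the V-ATPase gene *unc-32* and the cathepsin L gene *cpl-1*. The rule found 45 of the 25498 genes measured, each by 1 probe set. They comprised 19 V-ATPase genes, 17 aspartic protease genes and 9 cysteine protease genes. The symbols *asp-2*, *vha-2* and *vha-3* had no probe set of their own, and the 2 probe sets that *vha-2* and *vha-3* share were not used. RefSeq lists 44 of the 45 genes as protein coding and *asp-11* as a pseudogene. The names come from sequence families, and the arrays, made from whole worms, do not show whether a given protease acts in the lysosome or in the gut lumen.

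The V-ATPase is built from a V1 sector in the cytosol, which splits ATP, and a V0 sector in the membrane, through which protons pass. Aspartic proteases of the cathepsin D type and cysteine proteases of the cathepsin B and L types digest protein best at acid pH, and in worms several of them are made in the intestine. In mammals the transcription factor TFEB, the relative of worm HLH-30, raises genes of both kinds when nutrients are short, and the V-ATPase takes part in nutrient sensing at the lysosome.

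The 4 groups were wild-type N2 and the mutant *alfa-1(ok3062)*, each well-fed or kept for 6 hr without food, with 4 Affymetrix C. elegans arrays a group. The gene *alfa-1* is the worm relative of human C9orf72, ok3062 is a deletion within it, and the methods describe the mutant strains as backcrossed to N2. All worms were larvae given as L3 by the labels and as L3/L4 by the methods, raised at 20 degrees Celsius on OP50 bacteria. Starved worms were rocked in M9 buffer without food, whereas fed controls were rocked in M9 with food by the labels but frozen at once by the methods. By the methods, the 6 hr without food were spent at room temperature. If the fed controls were frozen at once, lack of food cannot be told apart from 6 hr of further age, handling and room temperature. The labels call the strains IW314 and IW313 under the strain tag where the methods give N2 and RB2260. Under the source name, the labels give IW314 for all samples, those of the mutant included. By the methods, collected worms were divided among tubes. Whether the 4 arrays of a group stem from separate cultures is not given, and the p-values may therefore rest on technical spread alone. In whole worms, fewer cells of a type and less RNA per cell cannot be told apart.

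All values are log2 expression values made by the authors with RMA, which evens out the arrays, so a shift shared by most genes would not appear in them. Differences below are log2 fold changes from limma fitted to all 16 arrays, and a gene was called at a p adjusted over all 25498 genes (Benjamini-Hochberg) under 0.05. Levels of different genes are not compared, because each probe set has its own brightness. The arrays had medians of 5.80 to 5.85. The value of *alfa-1* was 7.39 to 7.67 in the 8 mutant arrays and 9.11 to 9.59 in the 8 N2 arrays, so each array matched its strain label.

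In N2, 6 hr without food lowered 23 of the 45 genes and raised 2, *asp-6* and *cpr-2*. Across all genes tested, 22.4% were called in that comparison, 11.6% lower and 10.8% higher. In *alfa-1(ok3062)*, 20 genes fell and 3 rose, the third being *asp-16*, against 25.3% of all genes called, 14.3% lower and 10.9% higher. Of the 19 V-ATPase genes, 12 fell and 0 rose in N2, and 11 fell and 0 rose in the mutant. Of the 17 aspartic protease genes, 5 fell and 1 rose in N2, and 5 fell and 2 rose in the mutant. Of the 9 cysteine protease genes, 6 fell and 1 rose in N2, and 4 fell and 1 rose in the mutant. Starved and well-fed arrays did not overlap in 29 of the 45 genes in N2 and in 27 in the mutant, against 24.4% and 27.4% of all genes. The median log2 fold change was -0.33 for the V-ATPase, -0.02 for the aspartic and -0.39 for the cysteine proteases in N2, where that of all genes was 0.01. In the mutant the medians were -0.26, 0.10 and -0.15, and that of all genes was -0.02.

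Genes with bright probe sets were called more often, and 37 of the 45 genes, including all 19 V-ATPase genes, had means above the median of all genes. Among the 12749 genes above that median, tested alone, 21.9% fell and 20.6% rose in N2, and 25.1% fell and 13.3% rose in the mutant. In those fits, 14 of the 19 V-ATPase genes fell in N2 and 15 in the mutant, and 0 rose in either. Of the 10 aspartic protease genes above the median, 5 fell and 2 rose in N2, and 5 fell and 1 rose in the mutant. Of the 8 such cysteine protease genes, 6 fell in N2 and 4 in the mutant, and 0 rose in either. The 12749 genes are not matched in brightness to the V-ATPase genes, whose log2 values lay well above the cut of 5.85. Nor are they matched in precision. The median standard error of the change in N2 was 0.0683 for the V-ATPase and 0.121 for all genes.

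**Figure D1:**
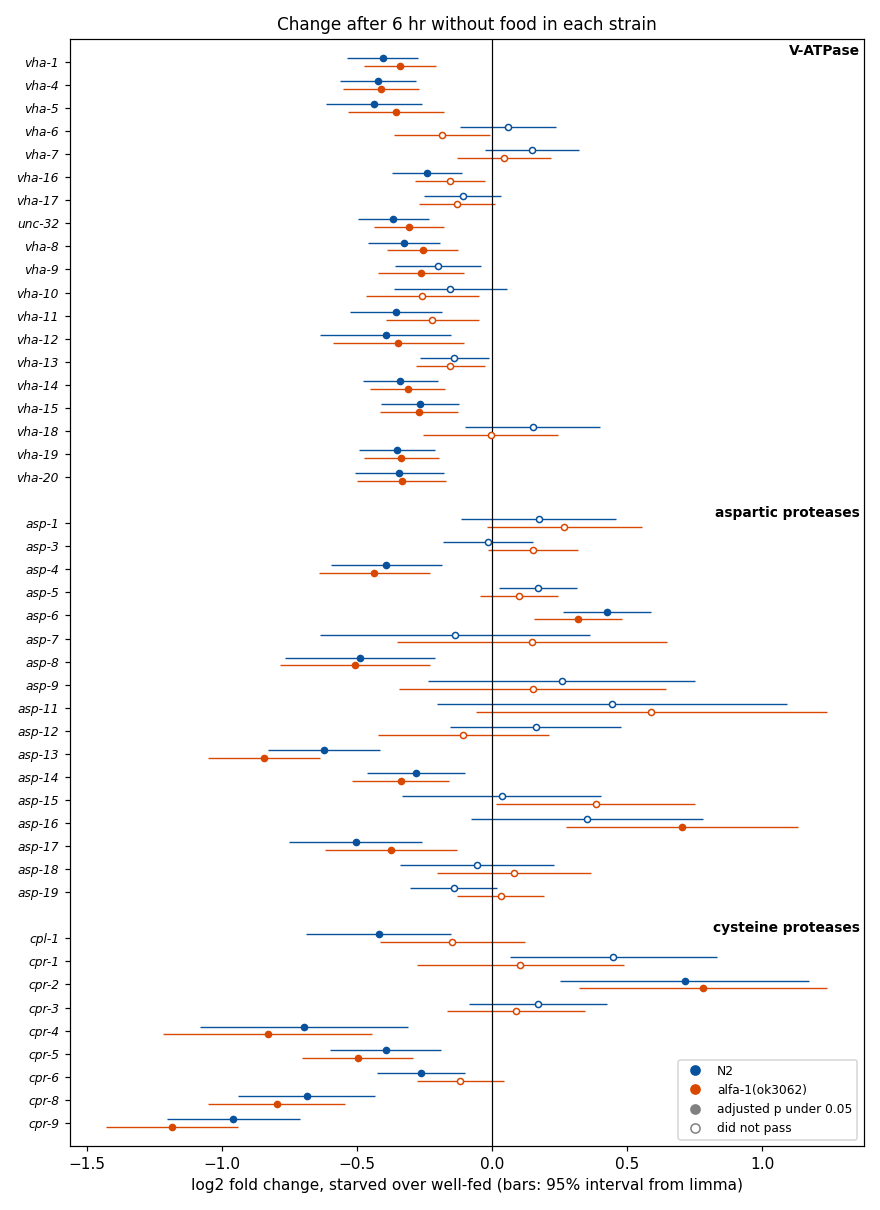
Log2 fold change of each of the 45 genes after 6 hr without food, starved over well-fed, with the 95% interval from limma, in N2 (blue) and *alfa-1(ok3062)* (orange), 4 arrays a group. Filled points passed at an adjusted p under 0.05. The V-ATPase genes that passed lie between -0.44 and -0.24 in N2 and between -0.41 and -0.26 in the mutant, whereas the proteases spread from -1.18 for *cpr-9* in the mutant to 0.78 for *cpr-2*.

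The same genes were called in the same direction in both strains in 21 cases, 19 lower and 2 higher. Across all genes, 8.76% were called lower and 5.75% higher in both. The 2 comparisons share no arrays. The log2 fold changes of the 2 comparisons had the same sign in 38 of the 45 genes. Their Pearson r was 0.92 across genes, which are not independent replicates. Neither measure was computed over all genes, so such agreement is not shown to be particular to the 45. The genes *vha-11*, *vha-16*, *cpl-1* and *cpr-6* passed in N2 alone, and *vha-9* and *asp-16* passed in the mutant alone. The difference between the strains in the starvation response was tested as an interaction. None of the 45 genes passed (smallest adjusted p = 0.735, for *vha-6*, from limma), none reached an unadjusted p under 0.05, and the share of all genes called was 0%. At an unadjusted p under 0.05 it was 6.44% of all genes. So these 6 genes are not shown to respond differently in the strains. These calls depend on the setting. The genes *vha-11* and *vha-16* passed in the mutant too with array weights, without dim probe sets, in the methods' t-test, with an intensity trend or after cyclic loess, and the N2 call of *vha-16* was lost when only the 8 arrays compared were fitted (adjusted p = 0.0523 from limma).

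The V0 sector holds the ring of c subunits that carries the protons, the large a subunit that holds the proton channel, and the d and e subunits. The c subunit gene *vha-1* had log2 values of 12.30, 12.31, 12.30 and 12.19 in well-fed N2 and 11.89, 11.88, 11.82 and 11.89 in starved N2. In the mutant the values were 12.28, 12.19, 12.21 and 12.15 well-fed and 11.81, 11.85, 11.91 and 11.90 starved. Starved and well-fed arrays did not overlap in either strain. The log2 fold change was -0.41 in N2 (standard error 0.0620, adjusted p = 0.000279) and -0.34 in the mutant (standard error 0.0620, adjusted p = 0.000989), both from limma.

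The gene *vha-4*, which encodes the related proteolipid subunit of that ring, had log2 values of 12.58, 12.66, 12.64 and 12.64 in well-fed N2 and 12.31, 12.25, 12.16 and 12.10 after starvation. The mutant values were 12.65, 12.58, 12.62 and 12.55 well-fed and 12.27, 12.13, 12.19 and 12.16 starved. All starved arrays again lay below all well-fed ones. Limma gave a log2 fold change of -0.42 in N2 (standard error 0.0664, adjusted p = 0.000346) and -0.41 in the mutant (standard error 0.0664, adjusted p = 0.000417). The d subunit gene *vha-16* had log2 values of 13.02 to 13.09 in well-fed N2, 12.77 to 12.88 in starved N2, 12.97 to 13.07 in the well-fed mutant and 12.84 to 12.89 in the starved mutant. Its groups did not overlap in either strain, but the change passed the test in N2 (-0.24, adjusted p = 0.00919 from limma) and not in the mutant (-0.16, adjusted p = 0.0710). For the e subunit gene *vha-17* the log2 fold changes were -0.11 and -0.13, and neither passed. After cyclic loess or with an intensity trend, *vha-17* passed in the mutant.

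Worms have 4 genes for the a subunit, made in partly different tissues. From earlier work, *unc-32* is the form of the nervous system, *vha-5* acts in the excretory canal and the hypodermis, *vha-6* sits at the apical membrane of the intestine and acidifies its lumen, and *vha-7* is found in the hypodermis and spermatheca. Food withdrawal lowered *unc-32* and *vha-5* in both strains and left *vha-6* and *vha-7* uncalled.

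For *unc-32* the log2 values were 10.65, 10.75, 10.69 and 10.64 in well-fed N2 and 10.34, 10.35, 10.35 and 10.23 in starved N2. They were 10.73, 10.61, 10.69 and 10.64 in the well-fed mutant and 10.35, 10.36, 10.36 and 10.36 in the starved mutant. Every starved array lay below every well-fed array. The change was -0.37 on the log2 scale in N2 (standard error 0.0612, adjusted p = 0.000570) and -0.31 in the mutant (standard error 0.0612, adjusted p = 0.00192).

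For *vha-5* the log2 values were 10.97, 11.04, 11.15 and 10.97 in well-fed N2 and 10.78, 10.57, 10.47 and 10.56 in starved N2. The mutant values were 11.18, 10.99, 11.18 and 10.97 well-fed and 10.69, 10.64, 10.78 and 10.78 starved. Again the groups did not overlap. The log2 fold change of -0.44 in N2 (standard error 0.0838, adjusted p = 0.00153) was the largest fall of any V-ATPase gene in that strain, and it was -0.36 in the mutant (adjusted p = 0.00582 from limma).

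The intestinal form *vha-6* had log2 values of 11.002, 10.92, 11.07 and 11.05 in well-fed N2 and 11.06, 11.10, 11.18 and 10.93 in starved N2. In the mutant they were 11.14, 11.11, 10.94 and 11.04 well-fed and 11.01, 10.69, 10.94 and 10.83 starved. Starved and well-fed arrays overlapped in both strains. Its log2 fold change was 0.06 in N2 (95% interval -0.12 to 0.23) and -0.19 in the mutant (-0.36 to -0.01), and neither passed (adjusted p = 0.690 and 0.122 from limma). The gene *vha-7* had log2 values of 9.99 to 10.13 in well-fed N2, 10.12 to 10.40 in starved N2, 9.99 to 10.23 in the well-fed mutant and 10.02 to 10.19 in the starved mutant. Its log2 fold changes were 0.15 (95% interval -0.03 to 0.32) and 0.04 (-0.13 to 0.22), neither of which passed.

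The a subunit genes were set against each other within each array, as the difference of their log2 values, and the food labels were permuted within each strain (exact permutation test, two-sided, 4900 arrangements). These tests were chosen after the values had been seen, and 15 pairs of genes were compared in all, 6 of a subunits and 9 of neighbouring genes, over which the p-values were adjusted. A response measured by 1 probe set can be compressed relative to that of another, and this was not tested. Averaged over the strains, *vha-5* fell more than *vha-6* by 0.33 on the log2 scale (exact p = 0.00245, adjusted p = 0.00857) and more than *vha-7* by 0.49 (exact p = 0.000408, adjusted p = 0.00204). The neuronal *unc-32* fell more than *vha-6* by 0.27 (exact p = 0.00286, adjusted p = 0.00857) and more than *vha-7* by 0.43 (exact p = 0.000408, adjusted p = 0.00204). The value 0.000408 is the smallest p these permutations allow. For *unc-32* against *vha-5* the difference was 0.06 (exact p = 0.207, adjusted p = 0.258). The intestinal *vha-6* lay below *vha-7* in its response by 0.16 (exact p = 0.00653, adjusted p = 0.0163), although neither passed alone. These averages cover unlike sizes in the strains. The response of *vha-5* minus that of *vha-6* was -0.49 in N2 and -0.17 in the mutant, and *unc-32* minus *vha-6* gave -0.42 and -0.12. Against *vha-7* the values were -0.58 and -0.40 for *vha-5*, -0.51 and -0.35 for *unc-32*, and -0.09 and -0.23 for *vha-6*. The strains were not compared by a test for these pairs.

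**Figure D2:**
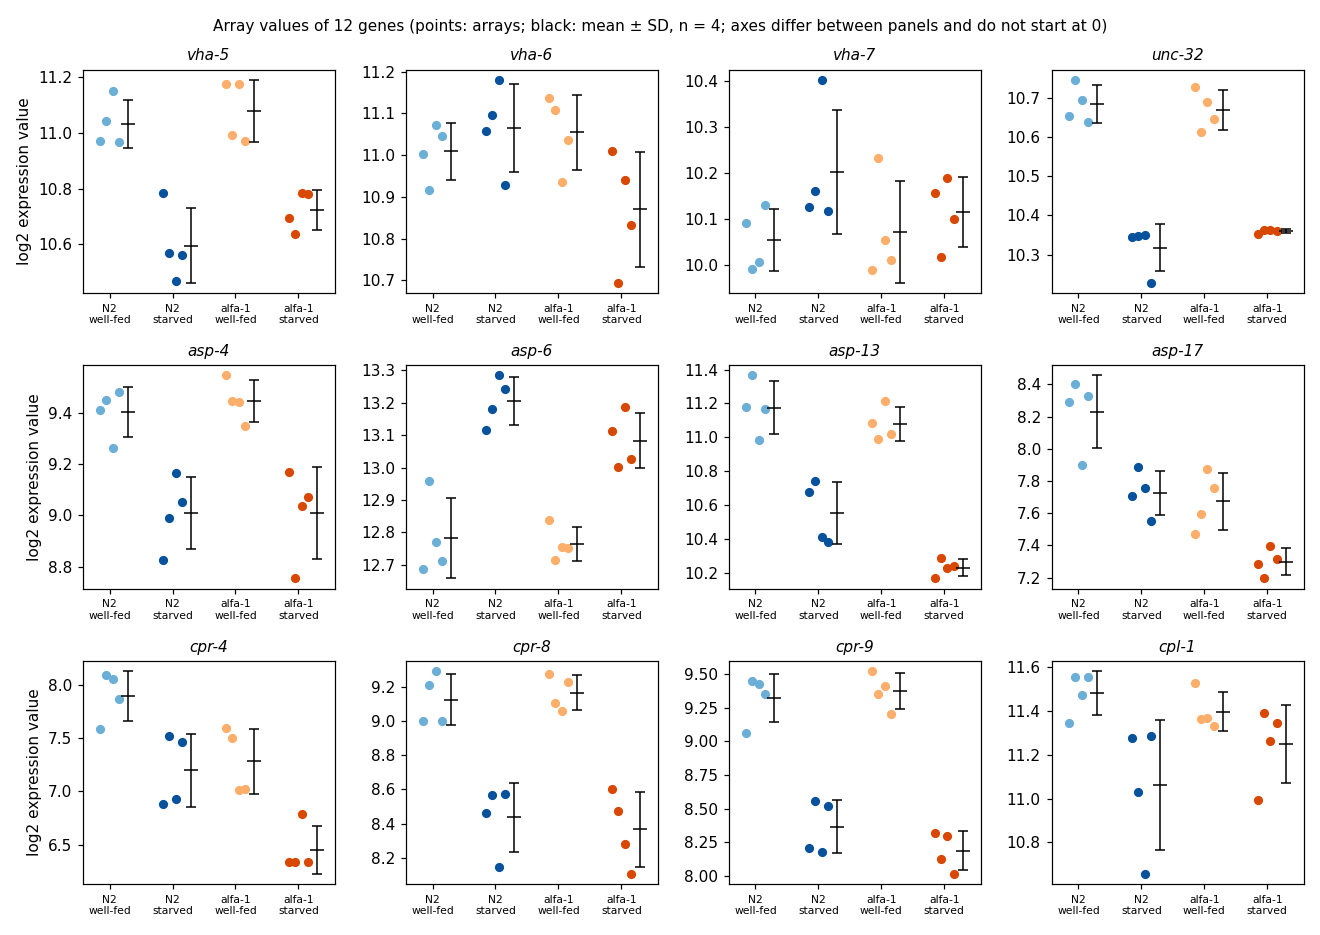
Log2 expression value of 12 genes in each of the 16 arrays, by group, with the mean ± SD of 4 arrays in black; axes differ between panels and do not start at 0. The starved arrays of *vha-5* and *unc-32* lie below all well-fed arrays of their strain, those of *vha-6* and *vha-7* overlap them, *asp-6* is higher in starved arrays, and *cpr-4* and *asp-17* have lower means in the mutant in both conditions.

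The V1 sector holds the catalytic A and B subunits, the stalks that join it to the membrane and the regulatory C and H subunits. Of its 9 genes, 5 fell and 0 rose in each strain. Of all genes tested, 11.6% fell and 10.8% rose in N2, and 14.3% fell and 10.9% rose in the mutant. For the peripheral stalk gene *vha-8* (subunit E) the log2 values were 13.18, 13.24, 13.25 and 13.16 in well-fed N2 and 12.85, 12.95, 12.77 and 12.96 in starved N2. The mutant values were 13.16, 13.15, 13.17 and 13.16 well-fed and 12.90, 12.91, 12.91 and 12.88 starved. The groups were apart in both strains, with log2 fold changes of -0.33 (adjusted p = 0.00153) and -0.26 (adjusted p = 0.00696) from limma. The rotor gene *vha-14* (subunit D) had log2 values of 12.10 to 12.27 in well-fed N2, 11.83 to 11.93 in starved N2, 12.11 to 12.22 in the well-fed mutant and 11.79 to 11.94 in the starved mutant. Its log2 fold changes were -0.34 (adjusted p = 0.00155) and -0.31 (adjusted p = 0.00269). The regulatory gene *vha-15* (subunit H) fell by 0.27 on the log2 scale in N2 (adjusted p = 0.0105 from limma) and by 0.27 in the mutant (adjusted p = 0.00868). Its paralogue *vha-18*, also annotated as an H subunit, was not called in either strain, with log2 fold changes of 0.15 (95% interval -0.10 to 0.40) and -0.01 (-0.25 to 0.24).

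The gene *vha-11* (subunit C, which helps V1 and V0 dock) had log2 values of 12.76 to 12.95 in well-fed N2, 12.40 to 12.69 in starved N2, 12.78 to 12.99 in the well-fed mutant and 12.58 to 12.69 in the starved mutant. The groups did not overlap in either strain. Limma gave -0.36 on the log2 scale in N2 (adjusted p = 0.00496) and -0.22 in the mutant, just outside the threshold (adjusted p = 0.0553). The stalk gene *vha-9* (subunit F) showed the reverse, at -0.20 in N2 (adjusted p = 0.0668) and -0.26 in the mutant (adjusted p = 0.0171), also with no overlap in either strain. That mutant call was lost without replicate 1 of the well-fed (-0.24) or replicate 4 of the starved mutant (-0.23). In N2 *vha-9* passed too after quantile or cyclic loess normalization, with an intensity trend or without dim probe sets. It also passed there without replicate 1 of well-fed N2 (-0.24). The catalytic A subunit gene *vha-13* and the stalk gene *vha-10* (subunit G) did not pass in either strain. Their log2 fold changes were -0.14 and -0.16 for *vha-13* (adjusted p = 0.107 and 0.0708) and -0.15 and -0.26 for *vha-10* (adjusted p = 0.296 and 0.0665). With an intensity trend or dim probe sets left out, *vha-13* passed in both strains and *vha-10* in the mutant.

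The nucleotide-binding B subunit gene *vha-12* was called in both strains, at -0.39 in N2 (adjusted p = 0.0211) and -0.35 in the mutant (adjusted p = 0.0358, both from limma), but the starved N2 arrays were spread. Their log2 values were 11.84, 12.17, 11.59 and 12.17, against 12.33, 12.49, 12.34 and 12.18 in well-fed N2. The mutant values were 12.34, 12.26, 12.49 and 12.32 well-fed and 12.06, 12.01, 12.02 and 11.94 starved. Replicates 1 and 3 of starved N2 were the lowest, and the same holds for *vha-10*, with 11.65, 12.04, 11.53 and 11.91, and for *vha-20*, with 11.04, 11.16, 10.86 and 11.20. Those 2 arrays were also the lowest in 7 genes of molting, whose mean log2 value was 9.99, 10.62, 9.33 and 10.74 in the 4 starved N2 arrays and 10.96 to 11.26 in well-fed N2. The part of molting in these values was not tested. The N2 call of *vha-12* was lost without replicate 2 of well-fed N2 (log2 fold change -0.34) and without replicate 1 (-0.36) or 3 (-0.28) of starved N2. Its mutant call was lost without any 1 of replicates 1, 3 and 4 of the well-fed and replicates 2, 3 and 4 of the starved mutant (-0.36 to -0.30).

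Both accessory subunit genes, which assist assembly and delivery of the pump, fell in both strains. The gene *vha-19*, related to mammalian Ac45, had log2 values of 12.71 to 12.83 in well-fed N2, 12.29 to 12.51 in starved N2, 12.77 to 12.83 in the well-fed mutant and 12.41 to 12.50 in the starved mutant. Its log2 fold changes were -0.35 (adjusted p = 0.00132) and -0.34 (adjusted p = 0.00179). The gene *vha-20*, related to the mammalian prorenin receptor, fell by 0.34 on the log2 scale in N2 (adjusted p = 0.00496 from limma) and by 0.33 in the mutant (adjusted p = 0.00534). Neither gene had an overlap between starved and well-fed arrays.

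**Figure D3:**
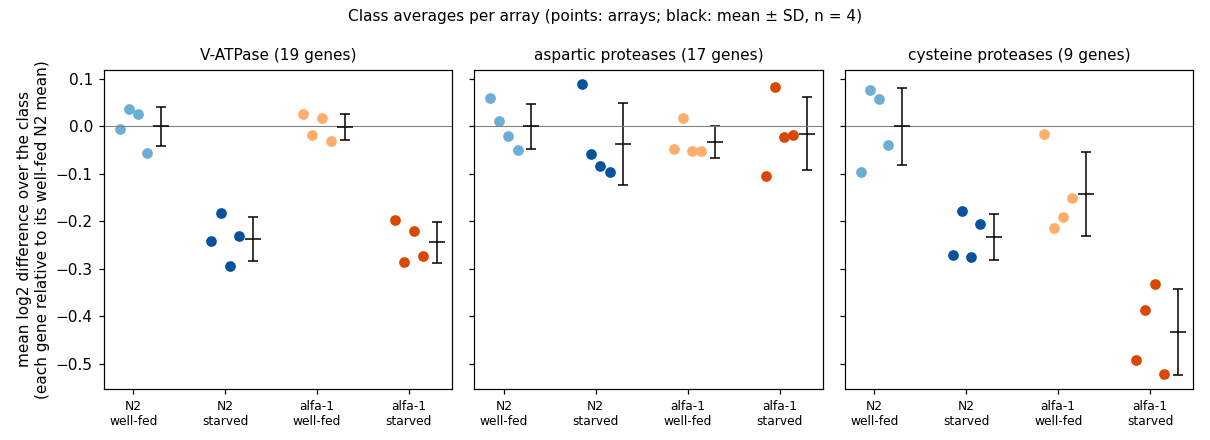
Mean log2 difference over the genes of each class in every array, each gene taken relative to its mean in well-fed N2, with the mean ± SD of 4 arrays in black. The V-ATPase average is -0.29 to -0.18 in the 8 starved arrays and -0.06 to 0.04 in the 8 well-fed arrays, the aspartic protease averages overlap in all groups, and the cysteine protease average is lowest in the starved mutant, at -0.52 to -0.33.

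The averages over each class in single arrays are given without a test. For the 19 V-ATPase genes, relative to well-fed N2, the arrays averaged -0.24, -0.18, -0.29 and -0.23 in starved N2 and -0.20, -0.29, -0.22 and -0.27 in the starved mutant. The well-fed mutant arrays averaged 0.03, -0.02, 0.02 and -0.03. The starved arrays of both strains thus covered nearly the same range, apart from all well-fed arrays. For the 17 aspartic proteases the starved arrays averaged 0.09, -0.06, -0.08 and -0.10 in N2 and -0.11, 0.08, -0.02 and -0.02 in the mutant, with no separation. For the 9 cysteine proteases the starved arrays averaged -0.27 to -0.18 in N2 and -0.52 to -0.33 in the mutant, against -0.10 to 0.08 in well-fed N2 and -0.21 to -0.02 in the well-fed mutant. Starved and well-fed arrays were apart within each strain, but the well-fed mutant overlapped starved N2.

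Aspartic proteases moved in both directions. The largest fall was that of *asp-13*, for which log2 values were 11.18, 11.37, 10.99 and 11.17 in well-fed N2 and 10.68, 10.74, 10.41 and 10.38 in starved N2. In the mutant they were 11.09, 10.99, 11.21 and 11.02 well-fed and 10.17, 10.29, 10.23 and 10.24 starved. The starved groups lay below the well-fed ones, and all 4 starved mutant arrays also lay below the starved N2 arrays. The log2 fold change was -0.62 in N2 (standard error 0.0978, adjusted p = 0.000351) and -0.85 in the mutant (standard error 0.0978, adjusted p = 2.85e-05), so that *asp-13* fell by 35.0% in N2 and fell by 44.3% in the mutant. The interaction was -0.22 (95% interval -0.52 to 0.07, adjusted p = 0.743 from limma).

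The cathepsin D relative *asp-4*, a lysosomal protease known for its part in necrotic death of worm neurons, had log2 values of 9.41, 9.45, 9.26 and 9.48 in well-fed N2 and 8.83, 8.99, 9.17 and 9.05 in starved N2. The mutant values were 9.55, 9.44, 9.44 and 9.35 well-fed and 9.17, 8.75, 9.04 and 9.07 starved. No starved array reached a well-fed one. On the log2 scale *asp-4* changed by -0.39 in N2 (adjusted p = 0.00846) and -0.44 in the mutant (adjusted p = 0.00404, both from limma). Its partner in that death pathway, *asp-3*, was not called, with log2 fold changes of -0.02 (95% interval -0.18 to 0.15) in N2 and 0.15 (-0.01 to 0.32) in the mutant.

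Also lower in both strains were *asp-8*, *asp-14* and *asp-17*. The gene *asp-8* had log2 values of 7.06 to 7.55 in well-fed N2, 6.65 to 6.96 in starved N2, 6.95 to 7.33 in the well-fed mutant and 6.45 to 7.01 in the starved mutant, so that the groups overlapped in the mutant by 1 starved array. Its log2 fold changes were -0.49 (adjusted p = 0.0134) and -0.51 (adjusted p = 0.0101). For *asp-14* the log2 values were 10.55 to 10.77, 10.21 to 10.48, 10.72 to 10.81 and 10.31 to 10.55 in the same order, and the log2 fold changes were -0.28 (adjusted p = 0.0255) and -0.34 (adjusted p = 0.00853). For *asp-17* they were -0.51 (adjusted p = 0.00524) and -0.37 (adjusted p = 0.0261), all from limma. Without replicate 3 of well-fed N2 neither *asp-8* (-0.41) nor *asp-14* (-0.23) passed in N2, and *asp-14* was also lost without replicate 1 (-0.24) or 2 (-0.25) of starved N2. The mutant call of *asp-17* was lost without replicate 3 (-0.31) or 4 (-0.35) of the well-fed or replicate 2 (-0.34) or 4 (-0.38) of the starved mutant. It was also lost under quantile (-0.28, adjusted p = 0.0783) and cyclic loess normalization (-0.27, adjusted p = 0.0920), and the N2 call of *asp-17* was lost in the methods' t-test.

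The rise called in both strains among the aspartic proteases was that of *asp-6*. Its log2 values were 12.69, 12.96, 12.77 and 12.71 in well-fed N2 and 13.12, 13.18, 13.28 and 13.24 in starved N2. They were 12.84, 12.71, 12.75 and 12.75 in the well-fed mutant and 13.11, 13.002, 13.19 and 13.03 in the starved mutant. All 8 starved arrays lay above all 8 well-fed arrays. Starvation gave a log2 fold change of 0.42 in N2 (standard error 0.0765, adjusted p = 0.00100), a rise of 34.2%, and 0.32 in the mutant (standard error 0.0765, adjusted p = 0.00656), a rise of 24.7%. The gene *asp-16* passed in the mutant alone, with log2 values of 3.54, 4.17, 4.20 and 3.53 well-fed and 4.45, 5.0005, 4.39 and 4.41 starved, and a log2 fold change of 0.70 (adjusted p = 0.0181 from limma). It did not pass without replicate 1 or 4 of the well-fed mutant (0.59 in each fit) or replicate 2 of the starved mutant (0.56). That probe set lay below the median of all genes, and in N2 the log2 fold change was 0.35 (95% interval -0.08 to 0.78).

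The remaining 10 aspartic protease genes, *asp-1*, *asp-3*, *asp-5*, *asp-7*, *asp-9*, *asp-11*, *asp-12*, *asp-15*, *asp-18* and *asp-19*, passed in neither strain. Of these, *asp-1*, an intestinal protease, had log2 values of 10.03 to 10.22 in well-fed N2 and 10.05 to 10.58 in starved N2. In the mutant they were 10.06 to 10.12 well-fed and 9.99 to 10.72 starved, so the starved arrays of *asp-1* were more spread than the well-fed ones and overlapped them. The gene *asp-5* was higher in all 4 starved N2 arrays, at 11.04 to 11.22 against 10.91 to 11.03, but its log2 fold change of 0.17 did not pass (adjusted p = 0.0870 from limma). With an intensity trend (adjusted p = 0.0265) or dim probe sets left out (adjusted p = 0.0326, both from limma), *asp-5* passed in N2. The probe sets of *asp-7*, *asp-9*, *asp-11*, *asp-15*, *asp-16*, *asp-18* and *asp-19* lay below the median of all genes.

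Of the 17 aspartic protease genes, 13 lie on chromosome V, and some are neighbours among the measured genes in the RefSeq order of assembly WBcel235. In the run *asp-6*, *asp-12*, *asp-5* and *asp-11*, only *asp-6* was called. In the run *asp-17*, *asp-16*, *asp-15* and *asp-1*, *asp-17* fell and its neighbour *asp-16* rose in the mutant. Averaged over the strains, the response of *asp-6* lay above that of *asp-12* by 0.34 on the log2 scale (exact permutation p = 0.0139, adjusted over the 15 pairs p = 0.0259), and that of *asp-12* differed from that of *asp-5* by -0.11 (exact permutation p = 0.382, adjusted p = 0.440). The other 6 pairs of neighbouring *asp* genes each hold a probe set below the median of all genes, *asp-7*, *asp-11*, *asp-15*, *asp-16*, *asp-18* or *asp-19*. Their differences are not given, because it is unknown how far those probe sets lie above background. Whether probes of one such paralogue also bind RNA of another was not tested.

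Among cysteine proteases, the cathepsin B relatives *cpr-9*, *cpr-4* and *cpr-8* showed the 3 largest falls of the 45 genes in N2. The log2 values of *cpr-9* were 9.07, 9.45, 9.43 and 9.35 in well-fed N2 and 8.21, 8.56, 8.18 and 8.52 in starved N2. They were 9.52, 9.35, 9.41 and 9.21 in the well-fed mutant and 8.32, 8.12, 8.29 and 8.01 in the starved mutant. All starved arrays lay well below all well-fed ones in both strains. With log2 fold changes of -0.96 in N2 (standard error 0.115, adjusted p = 4.2e-05) and -1.18 in the mutant (standard error 0.115, adjusted p = 6.59e-06), it fell by 48.5% in N2 and fell by 56.0% in the mutant.

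For *cpr-8* the log2 values ran from 8.997 to 9.29 in well-fed N2 and were 8.46, 8.57, 8.15 and 8.57 in starved N2. The mutant values were 9.27, 9.10, 9.06 and 9.23 well-fed and 8.60, 8.48, 8.28 and 8.11 starved. The groups did not overlap. On the log2 scale *cpr-8* changed by -0.69 in N2 (adjusted p = 0.000784) and -0.80 in the mutant (adjusted p = 0.000235, both from limma). Its neighbour on chromosome V, *cpr-5*, fell less, by 0.39 on the log2 scale in N2 (adjusted p = 0.00782) and by 0.50 in the mutant (adjusted p = 0.00155), and the responses of the pair differed by 0.30 (exact permutation p = 0.0147, adjusted over the 15 pairs p = 0.0259).

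For *cpr-4*, a cathepsin B relative secreted from the gut, the log2 values were 7.58, 8.09, 8.05 and 7.87 in well-fed N2 and 6.88, 7.52, 6.93 and 7.47 in starved N2. They were 7.59, 7.498, 7.01 and 7.02 in the well-fed mutant and 6.34, 6.34, 6.79 and 6.34 in the starved mutant. Starved arrays lay below well-fed ones in each strain. Limma gave log2 fold changes of -0.70 in N2 (standard error 0.182, adjusted p = 0.0116) and -0.83 in the mutant (standard error 0.182, adjusted p = 0.00360).

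The cathepsin L gene *cpl-1*, which worms need for embryonic growth and for larval molting, had log2 values of 11.34, 11.56, 11.47 and 11.56 in well-fed N2 and 11.28, 11.03, 10.66 and 11.28 in starved N2. In the mutant they were 11.53, 11.36, 11.37 and 11.33 well-fed and 10.99, 11.39, 11.26 and 11.35 starved. The groups were just apart in N2 and overlapped in the mutant. The log2 fold change of -0.42 passed in N2 (adjusted p = 0.0251) and that of -0.15 in the mutant did not (adjusted p = 0.431, both from limma). The N2 call was lost without any 1 of replicates 2, 3 and 4 of well-fed N2 and replicates 2 and 3 of starved N2 (-0.42 to -0.28). The cathepsin B relative *cpr-6* had log2 values of 12.31 to 12.50 in well-fed N2 and 12.08 to 12.19 in starved N2, a log2 fold change of -0.26 (adjusted p = 0.0201), which did not pass without replicate 2 of well-fed N2 (-0.23). In the mutant *cpr-6* stood at 12.22 to 12.43 well-fed and 12.08 to 12.31 starved, and the log2 fold change of -0.12 did not pass (adjusted p = 0.285).

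Against these falls, *cpr-2* was higher after starvation, on a dim probe set. Its log2 values were 4.41, 4.21, 4.16 and 3.98 in well-fed N2 and 5.42, 4.71, 5.20 and 4.28 in starved N2, so that 1 starved array lay among the fed ones. In the mutant they were 3.85, 3.70, 3.83 and 3.97 well-fed and 4.04, 4.74, 4.97 and 4.71 starved, with no overlap. Limma gave log2 fold changes of 0.71 (adjusted p = 0.0269) and 0.78 (adjusted p = 0.0153). The N2 call of *cpr-2* was lost without any 1 of replicates 2, 3 and 4 of well-fed N2 and replicates 1 and 3 of starved N2 (0.54 to 0.72), and the mutant call without replicate 3 of the starved mutant (0.66). The gut protease gene *cpr-1* had a log2 fold change of 0.45 in N2 (95% interval 0.06 to 0.83, adjusted p = 0.0883) and 0.10 in the mutant (-0.28 to 0.49), and *cpr-3* 0.17 and 0.09. None of these passed.

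None of the 45 genes was called between *alfa-1(ok3062)* and N2 in well-fed worms, where limma called 0.0902% of all genes, or in starved worms, where it called 0.0941%. The methods' t-test, adjusted, also called 0 in both conditions. At an unadjusted p under 0.05 from limma, 3 of the 45 genes differed in well-fed worms, against 4.72% of all genes, and 6 in starved worms, against 12.1%. The arrays of the strains did not overlap in 2 genes in well-fed worms, against 4.26% of all genes, and in 5 genes in starved worms, against 4.24%. For the 19 V-ATPase genes the strain differences ran from -0.07 to 0.08 on the log2 scale in well-fed worms and from -0.20 to 0.13 in starved worms. The 95% intervals of all 19 together reached from -0.25 to 0.29 in well-fed and from -0.41 to 0.31 in starved worms. The lowest of the starved values was that of *vha-6* (-0.20, 95% interval -0.37 to -0.02, adjusted p = 0.372).

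**Figure D4:**
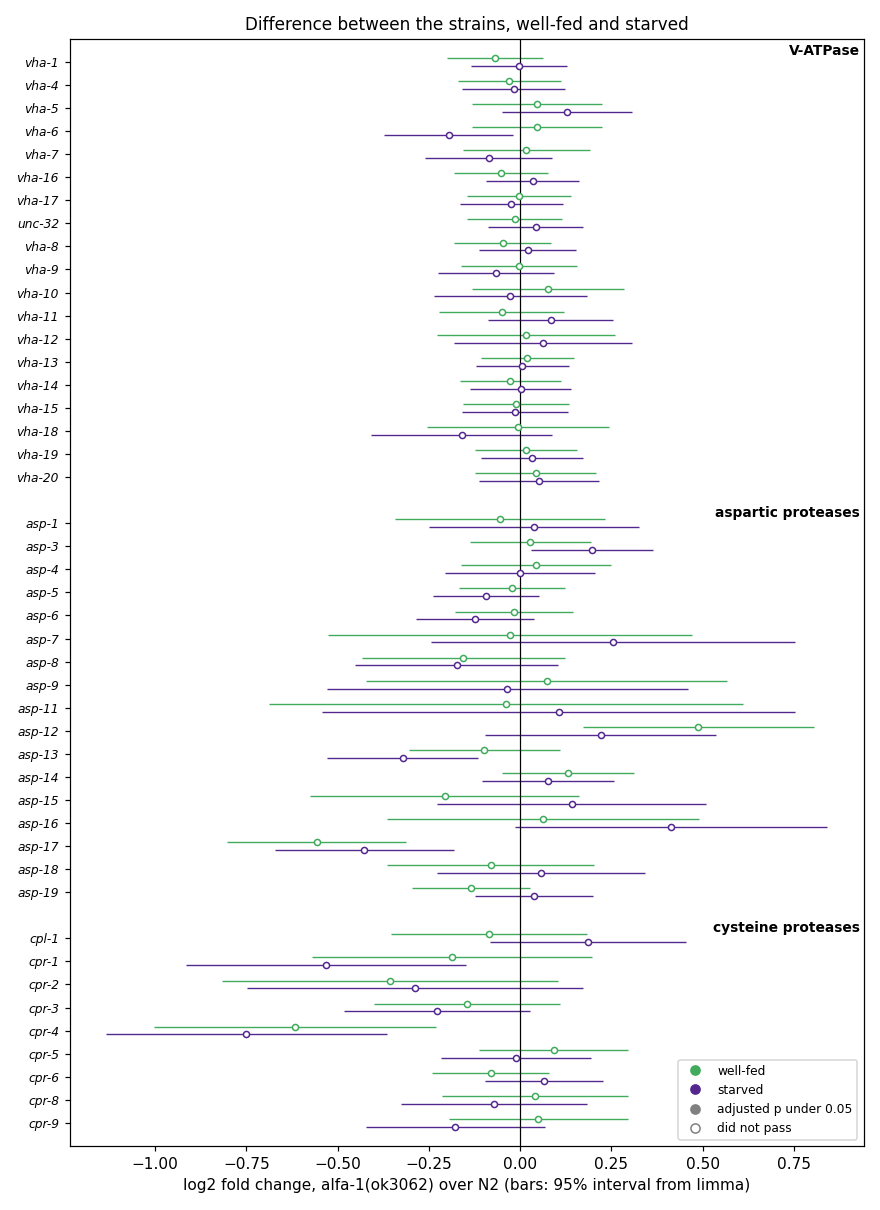
Log2 fold change of each of the 45 genes between the strains, *alfa-1(ok3062)* over N2, with the 95% interval from limma, in well-fed (green) and starved (purple) worms, 4 arrays a group. No point passed at an adjusted p under 0.05. The V-ATPase genes lie between -0.20 and 0.13, and the lowest values are those of *cpr-4* and *asp-17* in well-fed and of *cpr-4* and *cpr-1* in starved worms.

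The lowest values between the strains belonged to *cpr-4* and *asp-17* in well-fed worms and to *cpr-4* and *cpr-1* in starved worms. For *asp-17* the log2 values were 8.29, 8.40, 7.90 and 8.33 in well-fed N2 and 7.47, 7.59, 7.88 and 7.76 in the well-fed mutant. Starved arrays stood at 7.71, 7.89, 7.76 and 7.55 in N2 and 7.29, 7.19, 7.40 and 7.32 in the mutant. The mutant arrays lay below the N2 arrays of the same condition in both cases. The strains differed by -0.56 on the log2 scale in well-fed worms (standard error 0.115, adjusted p = 0.136) and -0.43 in starved worms (standard error 0.115, adjusted p = 0.236), both from limma. An exact permutation test of the 4 arrays against 4 gave p = 0.0286 in each condition, unadjusted and the smallest that this size allows. Groups that do not overlap always give that p, so it adds nothing to the lack of overlap. Without replicate 3 of well-fed N2, the lowest of its group, the well-fed difference was -0.67 and passed (adjusted p = 0.0239 from limma).

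The values of *cpr-4* given above were lower in the mutant, with differences of -0.62 on the log2 scale in well-fed worms (95% interval -1.002 to -0.23, adjusted p = 0.604) and -0.75 in starved worms (95% interval -1.14 to -0.36, adjusted p = 0.161 from limma). With array weights the starved difference was -0.95 and passed (adjusted p = 0.0360). The well-fed groups of *cpr-4* overlapped by 1 array and the starved groups did not. The gut protease gene *cpr-1* differed in starved worms by -0.53 (95% interval -0.92 to -0.15, adjusted p = 0.310), with log2 values of 9.10, 9.36, 9.62 and 9.30 in starved N2 and 8.64, 9.20, 8.82 and 8.58 in the starved mutant. In well-fed worms that difference was -0.19 (95% interval -0.57 to 0.20). The gene *asp-13* differed by -0.32 in starved worms (adjusted p = 0.281) and by -0.10 in well-fed worms. Pointing the other way, *asp-12* was higher in the well-fed mutant by 0.49 (95% interval 0.17 to 0.80, adjusted p = 0.636) and *asp-3* higher in the starved mutant by 0.20 (adjusted p = 0.357), with none of these past the threshold.

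Other lysosomal genes were counted from lists written with earlier results known. Their counts stand against 11.6% of all genes lower and 10.8% higher in N2, and 14.3% lower and 10.9% higher in the mutant. Of 22 further lysosomal hydrolases measured, 10 fell and 3 rose in N2, and 9 fell and 3 rose in the mutant. The largest fall was that of *pcp-2*, a relative of prolyl carboxypeptidase, at -1.32 on the log2 scale in N2 (adjusted p = 9.04e-07) and -1.60 in the mutant (adjusted p = 1.24e-07, from limma). Those that rose in N2 were *tag-196* (cathepsin F, 0.55), *hex-1* (hexosaminidase, 0.27) and *nuc-1* (the lysosomal DNase, 0.27). Of 24 lysosomal membrane proteins, 8 fell and 3 rose in N2 and 10 fell and 1 rose in the mutant, led by *cln-3.1*, a relative of the Batten disease gene CLN3, at -0.98 and -0.92. Both lists held genes that moved either way in each strain. Among 7 regulators, the fall of *mxl-3* (-1.44, adjusted p = 0.00479), a repressor of lysosomal lipase genes in fed worms, and the rises of *daf-16* (0.53) and *pha-4* (0.35) passed in N2. In the mutant *daf-16* (0.58), *pha-4* (0.48) and *hlh-30* (0.21, adjusted p = 0.0435), the worm relative of TFEB, rose. In N2 *hlh-30* stood at 0.15 (adjusted p = 0.172) and in the mutant *mxl-3* at -0.84 (adjusted p = 0.0718), and neither had an interaction that passed (0.07, adjusted p = 0.881, and 0.61, adjusted p = 0.762, from limma). Of the 2 cystatins, inhibitors of cysteine proteases, *cpi-1* rose in both strains (0.60 and 0.68).

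Markers of tissues were counted the same way, and their shares stand against the 22.4% of all genes called in N2 and 25.3% in the mutant. Of 9 intestinal markers, 4 fell in N2 and 6 in the mutant and 0 rose, with a mean log2 value of 9.46 to 9.61 in well-fed N2, 8.97 to 9.24 in starved N2, 9.46 to 9.55 in the well-fed mutant and 9.03 to 9.18 in the starved mutant. The intestinal GATA factor *elt-2* was not among those called. Of 8 excretory cell markers, 1 fell in N2 and 1 rose in the mutant, 12.5% in each case, and the mean was 8.11 to 8.33 in well-fed N2 and 8.11 to 8.26 in starved N2. Of 7 hypodermal markers, 3 fell in N2 and 2 in the mutant, and of 7 molting genes, 6 fell in N2 (median -1.10) and 2 in the mutant (median -0.44). In each strain the starved arrays of all 7 molting genes lay below the well-fed ones. Of all genes, 24.4% in N2 and 27.4% in the mutant had no overlap in either direction. Of 8 neuronal markers, 3 fell in each strain. Of 7 body wall muscle markers, 3 fell in N2 and 1 in the mutant, of 6 sperm genes, 2 and 4 fell, of 10 germline genes, 3 rose in N2 and 0 in the mutant, and of 5 pharyngeal markers 0 were called in either strain. Their part in the falls of the V-ATPase and protease genes was not tested. In well-fed worms 0 genes of these lists were called between the strains, and in starved worms *asm-2*, a sphingomyelinase, was the 1 called. The interaction called 0 genes of these lists and 0% of all genes. So unlike counts in N2 and the mutant, as for molting or the germline, do not show unlike responses.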

How the data were processed

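RNA of whole worms was measured on 16 Affymetrix C. elegans arrays, 4 in each group. The authors deposited 1 log2 expression value for each probe set and array. RMA and Partek are named in the submitters' processing notes without versions. The values ran from 1.84 to 14.2. Scanner intensities were not used here, so the signal over background of a probe set is unknown, and precision is limited by the number of arrays.

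The platform table names 1 gene for 25546 of the 29317 probe sets, several genes for 646 and no gene for 3125. For the 37 genes with more than 1 probe set, that of highest mean was used, which left 25498 genes. All 45 symbols matched RefSeq. Limma 3.58.1 in R 4.3.3 estimated a mean for each of the 4 groups, leaving 12 residual degrees of freedom, with Benjamini-Hochberg adjustment. Python 3.11.15 with matplotlib 3.10.9, numpy 2.4.6 and pandas 2.3.3 made the tables and figures. The fit was tested on simulated data.

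The members, the gene lists and the pairs were chosen with earlier results of these data known. Array values or ranges are given for members called in any comparison (up to 8 rises and 8 falls a class), the brightest 2 of each class and the 4 a subunit genes. In the other lists, called genes and those of smallest p could be named. The alternatives were leaving out each array, a block for the replicate number, fitting only the 8 arrays compared, centring on the median, further normalization by quantiles or cyclic loess, array weights, an intensity trend, a filter on dim probe sets, every probe set, a minimum fold of 1.5 and the methods' t-test. Member sequences are not printed, and every value column matched a sample.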

Additional observations from a re-analysis of the deposited data

Results flagged for a closer look

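In 8 of the 180 groups of 4 arrays (45 genes in 4 groups), 1 array lay far from the other 3 by Dixon's criterion at its 95% critical value, which chance passes in about 5% of groups. In well-fed N2, *vha-1* had a log2 value of 12.19 in replicate 4 against 12.30 to 12.31 in the others, and *vha-11* had 12.76 in replicate 4 against 12.93 to 12.95. Also in well-fed N2, *cpr-5* had 9.68 in replicate 1 against 9.55 to 9.56. In starved N2, *vha-7* had 10.40 in replicate 3 against 10.12 to 10.16, and *unc-32* had 10.23 in replicate 4 against 10.34 to 10.35. In the well-fed mutant, *cpr-1* had 8.29 in replicate 2 against 8.81 to 8.91. In the starved mutant, *asp-16* had 5.0005 in replicate 2 against 4.39 to 4.45, and *cpr-4* had 6.79 in replicate 3 against 6.34 in each of the others.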

How the results depend on the processing

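No change called by limma turned direction under any alternative in which its gene was fitted. With a fold of at least 1.5 required, 5 members passed in N2 and 6 in the mutant, since most changes were smaller than that. With array weights, 1 member, *cpr-4*, passed between the strains in starved worms. Leaving out 1 array at a time gave 21 to 26 members called in N2, 20 to 25 in the mutant, 0 to 1 between the strains in well-fed worms (the 1 being *asp-17*, without replicate 3 of well-fed N2) and 0 to 0 in starved worms and for the interaction. Under the remaining settings 17 (the methods' t-test, adjusted) to 28 (intensity trend) members were called in N2 and 22 to 28 in the mutant. Calls lost without some single array were those of *vha-12*, *asp-8*, *asp-14*, *cpl-1*, *cpr-2* and *cpr-6* in N2 and of *vha-9*, *vha-12*, *asp-16*, *asp-17* and *cpr-2* in the mutant. Fitting only the 8 arrays compared lost *vha-12*, *vha-16*, *asp-14*, *cpl-1* and *cpr-2* in N2, array weights lost *vha-12* in N2, and quantile or cyclic loess normalization lost *asp-17* in the mutant. The methods' t-test lost *vha-12*, *vha-20*, *asp-8*, *asp-14*, *asp-17*, *cpl-1*, *cpr-2*, *cpr-4* and *cpr-5* in N2 and *asp-8* and *asp-16* in the mutant. Arrays of the same replicate number did not deviate together (correlations of -0.47 to 0.15 between same-numbered arrays), so the numbers were not taken to pair samples. With the replicate number as a block, 25 members were called in N2, 22 in the mutant (*vha-12* was lost) and 0 in each of the other comparisons. Dim probe sets limit *asp-7*, *asp-9*, *asp-11*, *asp-15*, *asp-16*, *asp-18*, *asp-19* and *cpr-2*.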
